A study of Mus musculus with 24 samples.

Results

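The comparison described here asks which genes answered the Sh3bp2 knock-in differently in 2 cell populations sorted from bone marrow cultures. It used all 24 of the 24 libraries of the series in 1 fit, and its measure is the interaction, the knock-in effect in mesenchymal cells minus the knock-in effect in hematopoietic cells. Both effects are log2 fold changes of knock-in over wild type, so a negative interaction means a lower effect in mesenchymal cells and a positive one a higher effect there. The libraries came from female C57BL/6 mice aged 6 to 8 weeks, either wild type or Sh3bp2KI/KI, a genotype that carries the knock-in on both alleles and is coded CBM in the sample titles. All cultures were bone marrow stromal cultures kept for 7 days in MEM-alpha with serum and without a treatment that differed between groups. Cells were then sorted by flow cytometry, those with both CD45 and Sca1 on the surface as hematopoietic and those with Sca1 and no CD45 as mesenchymal, and each genotype gave 6 libraries per population. Both populations grew together in culture before the sort, so a response within a cell and a response to its neighbours cannot be told apart. Nor can fewer cells of a subtype and less RNA per cell. The labels do not say whether the replicates are separate animals, and p-values therefore measure only the spread between these samples.

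SH3BP2 is an adaptor protein that binds tyrosine kinases of the SYK and SRC families and helps to pass signals from immune receptors in myeloid cells and osteoclasts. Changes in the human gene cause cherubism, in which bone of the jaw is resorbed and replaced by fibrous tissue. In such a stromal culture, macrophages and osteoclast precursors grow beside stromal cells that can form bone, fat or fibroblasts, and the populations exchange cytokines, growth factors and matrix.

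Total counts per library ranged from 9875390 to 15826711, and 15389 genes passed the filter on low counts. Ptprc, which encodes CD45, averaged 793 and 749 CPM (counts scaled to library size) in wild type and knock-in hematopoietic libraries, against 2.98 and 3.13 CPM in mesenchymal ones. Ly6a, which encodes Sca1, averaged 12.1, 10.6, 9.99 and 11.1 CPM in wild type hematopoietic, knock-in hematopoietic, wild type mesenchymal and knock-in mesenchymal libraries. From 22 stromal markers, stromal RNA made up 4.56% to 19.8% of the hematopoietic libraries, with a wild type mean of 9.56% ± 4.45 and a knock-in mean of 10.2% ± 5.17 (SD, 6 libraries each). From 16 leukocyte markers, leukocyte RNA made up 0.143% to 0.921% of the mesenchymal libraries. EdgeR called no interaction among the 25 stromal and 16 leukocyte markers, of which 0 and 3 had an unadjusted p under 0.05, and DESeq2 and limma-voom called 2 and 1 leukocyte markers. Sh3bp2 itself averaged 211.9 and 233 CPM in the hematopoietic groups and 7.42 and 7.58 CPM in the mesenchymal groups, and its interaction was −0.11 ± 0.15 (SE, edgeR adjusted p = 0.79). Its level therefore does not check the genotype labels, since a knock-in changes the sequence and need not change the amount.

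The knock-in effect differed between the populations in 1121 of 15389 genes (7.28%) by the quasi-likelihood test of edgeR, with p-values adjusted by the Benjamini-Hochberg method and a threshold of 0.05. The effect was lower in mesenchymal cells in 671 genes (4.36%) and higher there in 450 (2.92%). Of these, 297 and 119 differed by at least 2-fold. In the same fit the knock-in effect was called in 2435 genes in hematopoietic cells (15.8%) and in 1024 in mesenchymal cells (6.65%). The hematopoietic genes rose in 1324 cases (8.6%) and fell in 1111 (7.22%). Among the 1121 genes, 483 rose in hematopoietic cells without a call in mesenchymal cells, and 255 fell in that way. A call in mesenchymal cells alone was made for 105 that rose and 102 that fell. Both effects were called with opposite signs in 61 genes and with the same sign but different sizes in 15, and 100 had neither effect called, all of them with estimates of opposite sign. A call in 1 population alone is a count of calls. What separates the populations is the interaction, which was called in every one of these genes.

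**Figure D1:**
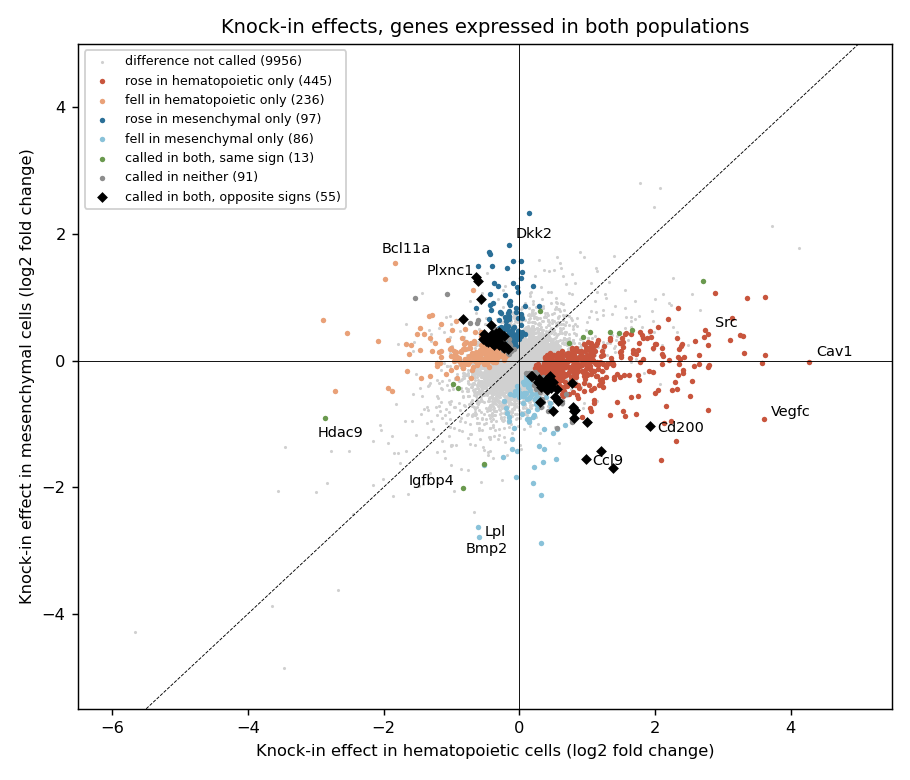
Knock-in effect in hematopoietic cells (x axis, log2 fold change) against that in mesenchymal cells (y axis, log2 fold change) for 10979 genes expressed in both populations, 1 point per gene, with colours for the class of call and a dashed line where both effects are equal. The 445 genes that rose in hematopoietic cells only lie along the right of the horizontal axis, the 97 and 86 called in mesenchymal cells only lie along the vertical axis, and the 55 with opposite signs (black diamonds) fill the upper left and lower right.

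Because RNA of one population was present in libraries of the other, a gene was counted as expressed in both only if it averaged 1 CPM or more in each and was not as low in one as carry-over could make it. That held for 10979 genes, of which 608 had a called interaction in the lower and 415 in the higher direction for mesenchymal cells. The genes described below are among them except Il1rn, Traf1, Tnf, Csf1, Runx2, Tnfsf11, Tnfrsf11b and Slc6a12.

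Genes that rose with the knock-in in hematopoietic cells and fell in mesenchymal cells numbered 35 (0.227% of all genes tested), and those with the reverse pattern 26 (0.169%). Of the 35, the libraries of the 2 genotypes did not overlap in hematopoietic cells for 18 and in mesenchymal cells for 14. Over all genes tested, 4.24% were higher without overlap in knock-in hematopoietic libraries and 1.92% were lower without overlap in knock-in mesenchymal libraries. In the other direction the shares were 2.95% lower in hematopoietic and 1.92% higher in mesenchymal libraries. The 35 were selected by these same effects, so nothing is read from that difference. Among the 35 were Zc3h12a, Ccl9, Cd200, Bcar3, Plxna2, Hk1, Mdh1, Uqcrh and Sdhc, and no theme was tested in this class.

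Bcar3 encodes an adaptor that links the scaffold p130Cas to small GTPases in cell adhesion. It lies on chromosome 3 (GRCm38, 122294136 to 122530191). In hematopoietic cells it ranged from 52.4 to 125 CPM in wild type (median 96.9) and from 146 to 192 CPM in knock-in libraries (median 166). In mesenchymal cells it ranged from 173 to 227 CPM in wild type (median 212.2) and from 82.1 to 136 CPM in knock-in libraries (median 113). The genotypes did not overlap in either population, and the order was reversed between them. The knock-in effect was 0.81 in hematopoietic and −0.91 in mesenchymal cells, an interaction of −1.71 ± 0.20 (SE, 95% confidence interval −2.13 to −1.29, edgeR adjusted p = 1.9e-05).

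Zc3h12a encodes Regnase-1, an RNase that degrades inflammatory mRNAs. Its wild type hematopoietic libraries lay at 20.9 to 31.8 CPM (median 26.2) and the knock-in ones at 32.8 to 44.3 (median 39.9). Wild type mesenchymal libraries lay at 16.2 to 21.1 CPM (median 18.8) and the knock-in ones at 10.3 to 15.3 (median 11.2). All 6 knock-in libraries were above all wild type ones in hematopoietic cells, and all 6 were below in mesenchymal cells. The effects were 0.57 and −0.64, and the interaction was −1.22 ± 0.15 (SE, edgeR adjusted p = 3.5e-05).

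Ccl9, a chemokine made by macrophages and osteoclasts, ranged from 86.1 to 158 CPM in wild type hematopoietic libraries (median 121) and from 146 to 603 CPM in knock-in ones (median 192). The 2 ranges overlapped, and the highest library, knock-in replicate 6, stood far above the others. In mesenchymal libraries Ccl9 ranged from 36.4 to 83.2 CPM in wild type (median 61.9) and from 11.2 to 36 CPM in knock-in (median 16.8), without overlap. The effects were 0.98 and −1.55, and the interaction was −2.53 ± 0.37 (SE, edgeR adjusted p = 0.00015). With each library left out in turn the interaction of Ccl9 stayed between −2.71 and −2.19.

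Cd200 encodes a surface glycoprotein whose receptor restrains myeloid cells. It ranged from 2.99 to 8.52 CPM in wild type hematopoietic libraries (median 5.41) and from 13.3 to 42.2 CPM in knock-in ones (median 16.4), with no overlap. The mesenchymal libraries ranged from 19.2 to 51.4 CPM in wild type (median 32.3) and from 9.41 to 30.3 CPM in knock-in (median 14.3), with overlap. The effects were 1.93 and −1.03, and the interaction was −2.95 ± 0.44 (SE, edgeR adjusted p = 0.00018). The fall of Cd200 in mesenchymal cells lay close to the threshold. Its adjusted p of 0.04 rose above 0.05, to at most 0.0964, when any of 10 of the 12 mesenchymal libraries was left out, all but wild type replicate 2 and knock-in replicate 4.

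Among the 26 genes of the reverse direction were Ap2a2, Retreg1, Ctsb, Lrp1, Man2a1, Plxnc1, Rassf5, Cdc42se2, Gng2 and Wnk1, and no theme was tested there either. Retreg1 encodes a receptor for autophagy of the endoplasmic reticulum. It ranged from 118 to 188 CPM in wild type hematopoietic libraries (median 133) and from 79.8 to 118 CPM in knock-in ones (median 95.3). In mesenchymal libraries it ranged from 7.02 to 13.9 CPM in wild type (median 11.9) and from 17.7 to 26.7 CPM in knock-in (median 22.4). The ranges met in hematopoietic cells and were apart in mesenchymal cells. The effects were −0.56 and 0.97, and the interaction was 1.53 ± 0.22 (SE, edgeR adjusted p = 0.00013).

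Rassf5 encodes RAPL, a partner of RAP1 in integrin-dependent adhesion of leukocytes. Wild type hematopoietic libraries lay at 77.6 to 92.2 CPM (median 79.1) and knock-in ones at 51.4 to 69.9 (median 61.6). Wild type mesenchymal libraries lay at 22.5 to 39.6 CPM (median 37.8) and knock-in ones at 45.1 to 59.7 (median 50.3). The genotypes were apart in both populations, in opposite order. The interaction of Rassf5 was 0.98 ± 0.15 (SE, edgeR adjusted p = 0.00017).

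Ctsb encodes the lysosomal cysteine protease cathepsin B. In hematopoietic libraries it averaged 4251 CPM (wild type) and 3202 CPM (knock-in), with overlap, and in mesenchymal libraries it ranged from 191 to 263 CPM in wild type (median 225) and from 282 to 329 CPM in knock-in (median 302), without overlap. The interaction was 0.82 ± 0.13 (SE, edgeR adjusted p = 0.00031). Plxnc1, a semaphorin receptor, fell from a median of 202 to 139 CPM in hematopoietic cells and rose from 12.3 to 27.9 CPM in mesenchymal cells, with an interaction of 1.87 ± 0.27 (SE, edgeR adjusted p = 0.00016). The hematopoietic fall of Plxnc1 had an adjusted p of 0.027, which rose to between 0.0516 and 0.0722 without wild type replicate 4 or 6 or without knock-in replicate 1, 2 or 6 of that population. Wild type mesenchymal replicate 6 gave the lowest value of its group for Bcar3, Plxnc1, Retreg1 and Rassf5.

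**Figure D2:**
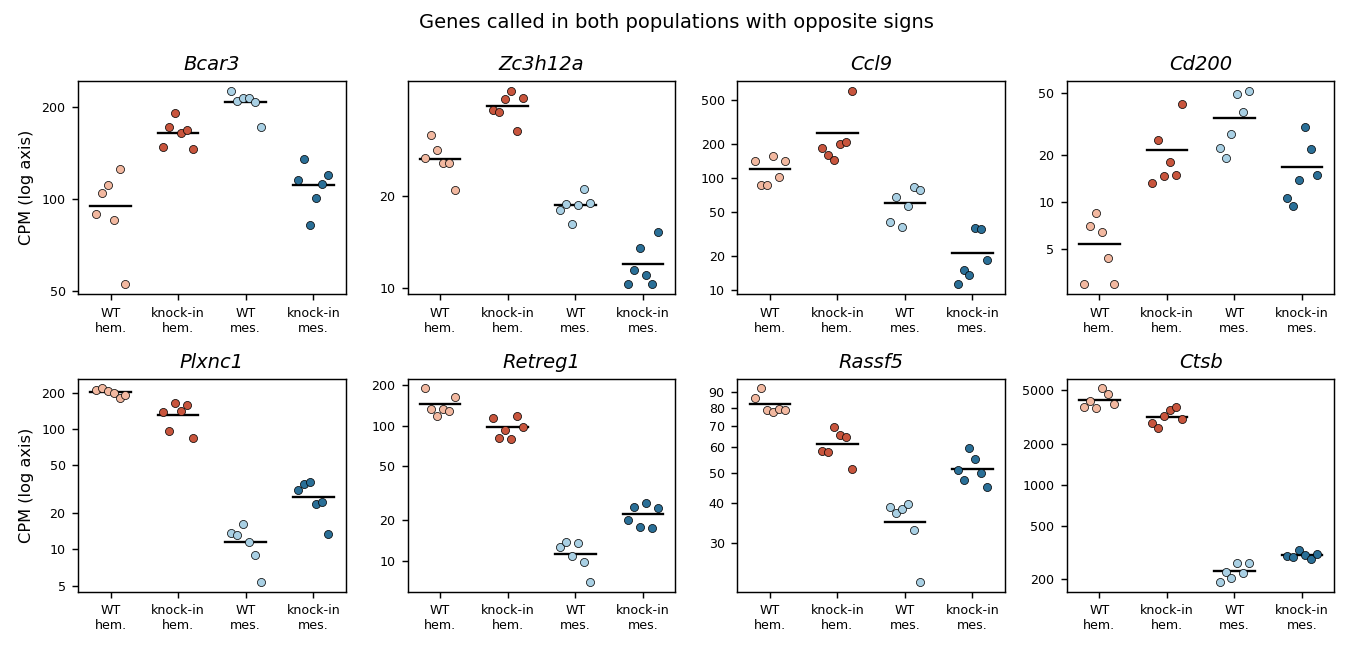
CPM of 8 genes with opposite knock-in effects (y axes, log scale, 1 panel per gene) in the 4 groups on the x axis (WT wild type, hem. hematopoietic, mes. mesenchymal), with 1 point per library and a line at the mean of 6. In the upper row the knock-in points are higher in hematopoietic and lower in mesenchymal cells, and in the lower row the order is the reverse, for example 0.57 and −0.64 (log2) for Zc3h12a.

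Carry-over between the sorted populations was also taken into account. Each library's estimated share of the other population's profile was subtracted. The estimates of all 61 genes then still had opposite signs and all 61 interactions were called, while both single-population calls remained for 39. Where effects have opposite signs, this subtraction tends to move the 2 estimates further apart. Nothing is therefore read from the kept signs and interactions. The interaction of Bcar3 was then −1.96, of Ccl9 −2.67, of Retreg1 1.59 and of Rassf5 1.05. The number of genes meeting all 3 criteria depended on single mesenchymal libraries. It was 36 without wild type replicate 3, 35 without wild type replicate 6, and 37, 38 and 36 without knock-in replicates 1, 2 and 3.

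The largest class was that of genes that rose in hematopoietic cells only. Cav1, which encodes caveolin-1, the coat protein of caveolae, lies on chromosome 6 (GRCm38, 17306335 to 17341452). It ranged from 8.36 to 27.7 CPM in wild type hematopoietic libraries (median 16.8) and from 154 to 589 CPM in knock-in ones (median 322). The mesenchymal libraries ranged from 61.1 to 157 CPM in wild type (median 106) and from 68.2 to 157 CPM in knock-in (median 102). The genotypes were far apart in hematopoietic cells and shared the same range in mesenchymal cells. The effects were 4.27 and −0.03, and the interaction was −4.30 ± 0.41 (SE, 95% confidence interval −5.16 to −3.44, edgeR adjusted p = 2.4e-06). Its neighbour Cav2, which encodes the partner caveolin-2, had an interaction of −1.77 with effects of 1.54 and −0.23.

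Vegfc, a growth factor of lymphatic vessels, ranged from 1.98 to 7.21 CPM in wild type hematopoietic libraries (median 3.79) and from 15.3 to 112.1 CPM in knock-in ones (median 45.5). In mesenchymal libraries it ranged from 19.9 to 71.6 CPM in wild type (median 24.7) and from 13.2 to 25 CPM in knock-in (median 17.3). The rise in hematopoietic cells was without overlap, and the mesenchymal ranges overlapped. The interaction of Vegfc was −4.53 ± 0.51 (SE, edgeR adjusted p = 1.6e-05). Itga2, the collagen-binding integrin subunit, rose from a median of 1.79 to 25.3 CPM in hematopoietic libraries and had medians of 3.17 and 2.87 CPM in mesenchymal ones, an interaction of −3.60 ± 0.58 (SE, edgeR adjusted p = 0.00035). The other genes with the largest negative interactions in this class were Steap4, a metalloreductase, Syt6, a synaptotagmin, and Akap6, an anchor for protein kinase A, at −3.65, −3.58 and −3.56. Steap4 lost its interaction call without wild type mesenchymal replicate 6 (edgeR adjusted p = 0.055).

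Osteoclast genes were described as a list. Of 24 genes of the osteoclast list that were tested, 20 rose in hematopoietic and 5 in mesenchymal cells, against 8.6% and 2.86% of all genes. Only 13 of the 24 counted as expressed in both populations, and the part of carry-over in the other members was not tested. The mesenchymal count of 5 was 3 without any 1 of wild type mesenchymal replicates 1, 2, 3, 5 and 6 or knock-in mesenchymal replicates 2, 3 and 6, and 0 by limma-voom. The interaction was lower in mesenchymal cells for 6 (Src, Jdp2, Nfatc1, Itgb3, Clcn7 and Nfkb2) and higher for none, beside 4.36% and 2.92% of all genes. The median effects were 2.31 in hematopoietic and 0.39 in mesenchymal cells, and the median interaction was −0.39, beside −0.019, −0.0079 and 0.0045 over all genes. Src encodes the kinase needed for the ruffled border of osteoclasts. It ranged from 7.62 to 27.4 CPM in wild type hematopoietic libraries (median 19.6) and from 90.7 to 174 CPM in knock-in ones (median 135). The mesenchymal libraries ranged from 72 to 89.6 CPM in wild type (median 81.2) and from 95.2 to 118 CPM in knock-in (median 111.1). Knock-in libraries were above wild type ones without overlap in both populations. The effects were 2.79 in hematopoietic cells and 0.42 in mesenchymal cells, the latter not called (adjusted p = 0.25), and the interaction was −2.36 ± 0.30 (SE, edgeR adjusted p = 4.4e-05). Nfatc1, the master transcription factor of osteoclasts, had effects of 1.28 and −0.05, Itgb3, a subunit of the vitronectin receptor, 2.58 and 0.31, and Jdp2, a partner of AP-1 proteins, 2.40 and 0.26. Of 17 tested genes of the vacuolar proton pump, which acidifies lysosomes and the resorption pit, 7 had a lower and 1 a higher effect in mesenchymal cells. In hematopoietic cells 13 of the 17 rose and 1 fell, beside 8.6% and 7.22% of all genes. Atp6v1b2 had effects of 1.07 in hematopoietic and 0.18 in mesenchymal cells. The pump subunit gene with the higher effect in mesenchymal cells, Atp6v0a1, fell without overlap in both populations, by 0.90 in hematopoietic and 0.43 in mesenchymal cells on the log2 scale. In the lysosome list, which holds the pump genes, 9 of 44 had a lower and 2 a higher effect in mesenchymal cells, beside 4.36% and 2.92% of all genes.

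In the list of NF-kB signalling and the Toll-like receptors that feed it, 9 of 39 tested genes had a lower effect in mesenchymal cells and 1, Tab2, a higher one, beside 4.36% and 2.92% of all genes. In hematopoietic cells 13 rose and 4 fell, beside 8.6% and 7.22% of all genes. The 9 were Tnip1, Bcl3, Nfkbia, Nfkbie, Relb, Nfkb2, Tnfaip3, Traf1 and Irak3, most of which encode inhibitors of the pathway or NF-kB subunits. Tnip1 averaged 102 and 210 CPM in wild type and knock-in hematopoietic cells and 54.2 and 52.4 CPM in mesenchymal cells, an interaction of −1.08 ± 0.13 (SE, edgeR adjusted p = 2.5e-05). The list's median effects were 0.04 and −0.03 and its median interaction −0.04. In the antioxidant list 5 of 22 had a lower effect in mesenchymal cells and none a higher one, beside 4.36% and 2.92% of all genes, and the 5 became 3 without any 1 of wild type hematopoietic replicates 1, 2, 3 and 6, knock-in hematopoietic replicate 3, wild type mesenchymal replicates 1 and 2 or knock-in mesenchymal replicates 2, 3 and 4. The 5 included Sod2, the mitochondrial superoxide dismutase (1.27 and −0.26), and Slc7a11, the cystine carrier (2.88 and 1.07). Met, the receptor of hepatocyte growth factor, averaged 12.6 and 125 CPM in hematopoietic cells and 8.91 and 9.79 CPM in mesenchymal cells, an interaction of −3.20 ± 0.37 (SE, edgeR adjusted p = 1.9e-05).

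Promoter sequence was compared for these genes in RefSeq windows (GRCm38.p6) of 250 bases before a listed start, which 10853 of the genes tested had. The motif TGANTCA is a form bound by AP-1 proteins such as those encoded by Fosl2 and Junb. Both genes rose in hematopoietic cells, where 5 of 30 AP-1 and immediate early genes rose and 1 fell, beside 8.6% and 7.22% of all genes. That list's median hematopoietic effect was −0.088, and the 5 became 2 or 3 without any 1 of 12 libraries. The motif was searched on both strands. It was in a window of 35 of 377 genes that rose in hematopoietic cells only (9.28%), against 5.76% of all genes tested and 6.75% of all 32851 windows of the table. It was in 24 of 346 genes with a positive interaction (6.94%). A second motif, that of the regulator NRF1, was searched too, and it was in 22 of the 377 genes (5.84%) against 8.62% of all genes tested, and in 5 of 30 oxidative phosphorylation genes with a window (16.7%). The 2 windows below belong to the genes of that class with the smallest interaction p among those holding the motif and no annotated exon, and the capitals mark the motif, 92 and 140 bases before the start. They were chosen after the values were seen.
Cav2, chr6:17280935-17281184, plus strand: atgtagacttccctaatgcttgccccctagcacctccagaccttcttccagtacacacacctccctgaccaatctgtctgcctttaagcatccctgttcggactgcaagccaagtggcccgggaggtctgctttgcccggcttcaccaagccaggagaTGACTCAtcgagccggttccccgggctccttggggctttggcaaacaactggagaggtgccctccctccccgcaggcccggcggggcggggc
Agpat4, chr17:12119034-12119283, plus strand: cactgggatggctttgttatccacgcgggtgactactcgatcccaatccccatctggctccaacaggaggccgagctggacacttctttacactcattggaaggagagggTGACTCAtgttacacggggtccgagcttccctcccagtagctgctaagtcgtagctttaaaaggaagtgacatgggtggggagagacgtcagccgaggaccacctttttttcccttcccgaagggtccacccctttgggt
Agpat4 encodes an acyltransferase of phospholipid synthesis and had effects of 1.09 and 0.01 with an interaction of −1.09. A match describes the letters of a window and not a site in use.

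Genes that fell in hematopoietic cells only were led by Ctnnd2, a catenin relative of cell junctions, Fgf13, Bcl11a, a transcription factor of lymphoid and dendritic cell lineages, and Ripor2. Ctnnd2 ranged from 15 to 24.1 CPM in wild type hematopoietic libraries (median 17.1) and from 1.85 to 3.28 CPM in knock-in ones (median 2.56), far apart. In mesenchymal libraries it ranged from 0.401 to 3.82 CPM in wild type (median 1.14) and from 0.862 to 7.03 CPM in knock-in (median 1.46), with overlap. The interaction was 3.54 ± 0.56 (SE, edgeR adjusted p = 0.00032). Nrp1, a co-receptor of semaphorins and VEGF, averaged 589 and 191 CPM in hematopoietic cells and 263 and 282 CPM in mesenchymal cells, an interaction of 1.73 ± 0.23 (SE, edgeR adjusted p = 5.4e-05).

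Genes that fell in mesenchymal cells only included Lpl, Cebpa and Fabp4, which work in fat cells. Lpl encodes lipoprotein lipase and lies on chromosome 8 (GRCm38, 68880491 to 68907448). The mesenchymal libraries ranged from 134 to 256 CPM in wild type (median 219) and from 23.1 to 64.5 CPM in knock-in (median 30.1). In hematopoietic libraries it ranged from 298 to 829 CPM in wild type (median 442) and from 185 to 624 CPM in knock-in (median 281). The genotypes were apart in mesenchymal cells and overlapped in hematopoietic cells. The effects were −2.62 and −0.61, and the interaction was −2.01 ± 0.41 (SE, edgeR adjusted p = 0.0034). Without knock-in hematopoietic replicate 6 the fall in hematopoietic cells was also called, at −0.88. Cebpa, a transcription factor of fat and myeloid cells, ranged from 14.6 to 41.3 CPM in wild type mesenchymal libraries (median 28.5) and from 7.38 to 12.7 CPM in knock-in ones (median 9.48). Hematopoietic libraries had medians of 70.3 and 61.3 CPM and overlapped. Its interaction was −1.29 ± 0.26 (SE, edgeR adjusted p = 0.0027). Fabp4, the fatty acid carrier of adipocytes and macrophages, had effects of −1.93 in mesenchymal and 0.20 in hematopoietic cells, and its interaction of −2.12 missed the threshold without knock-in hematopoietic replicate 6 (edgeR adjusted p = 0.0629). Of 28 genes of the adipocyte list, 3 had a lower and 1 a higher effect in mesenchymal cells, beside 4.36% and 2.92% of all genes, and the 1 was lost without any 1 of 21 libraries, all but wild type hematopoietic replicate 6, knock-in hematopoietic replicate 5 and knock-in mesenchymal replicate 6. The list as a whole did not differ in that way, since 7 fell in each population, beside 7.22% and 3.79% of all genes. Its median effects were −0.43 in hematopoietic and −0.20 in mesenchymal cells, and its median interaction was 0.019. The summed level of 8 defining adipocyte markers was 10.9 to 25.6 CPM in wild type and 3.58 to 7.59 CPM in knock-in mesenchymal libraries, with 2 and 4 of the 8 at 0 in every library. In hematopoietic libraries it was 17.6 to 26.7 and 19.4 to 36.8 CPM. The part of fat-like cells in these results was not tested.

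Il1rn, the antagonist of the interleukin-1 receptor, averaged 521 CPM in mesenchymal libraries of wild type and 123 CPM in those of knock-in cultures, without overlap, and 27.2 and 25.9 CPM in hematopoietic ones. The interaction was −2.01 ± 0.34 (SE, edgeR adjusted p = 0.00061). Its hematopoietic level was under 0.25 of its mesenchymal level, so it does not count as expressed in both. Nlrc5, the transactivator of MHC class I genes, ranged from 32.4 to 59.4 CPM in wild type mesenchymal libraries (median 48.7) and from 16.2 to 23.2 CPM in knock-in ones (median 20.2), and its hematopoietic medians were 84.2 and 81.7 CPM. The interaction was −1.13 ± 0.18 (SE, edgeR adjusted p = 0.00034). The class I genes H2-K1 and H2-D1, whose reads near-identical genes can share, had mesenchymal effects of −0.61 and −0.52 and hematopoietic effects of 0.12 and 0.10. Among 16 genes of MHC class I presentation, 3 had a lower and 1, Erap1, a higher effect in mesenchymal cells, beside 4.36% and 2.92% of all genes. Bmp2, a bone-inducing ligand, had a median of 4.93 CPM in mesenchymal libraries of wild type and 0.68 CPM in those of knock-in cultures, without overlap, and medians of 2.59 and 1.01 CPM in hematopoietic ones. Its interaction was −2.20 ± 0.56 (SE, edgeR adjusted p = 0.016). Without knock-in hematopoietic replicate 6 the hematopoietic effect of Bmp2 was called too, at −1.13. Comp, a cartilage matrix protein, had the largest negative interaction of this class, −3.21.

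Genes that rose in mesenchymal cells only included 2 heparan sulfate 3-O-sulfotransferases, Hs3st1 and Hs3st3b1, which modify the sugar chains that hold growth factors. Their mesenchymal effects were 2.33 and 1.71 and their hematopoietic effects 0.14 and −0.45. Fyn encodes a SRC-family kinase. It ranged from 78.5 to 236 CPM in wild type mesenchymal libraries (median 177) and from 227 to 469 CPM in knock-in ones (median 293), with a small overlap. In hematopoietic libraries it ranged from 116 to 205 CPM in wild type (median 154) and from 76.4 to 170 CPM in knock-in (median 110.7). The interaction was 1.31 ± 0.23 (SE, edgeR adjusted p = 0.00077). The hematopoietic effect of Fyn, −0.44, was called without knock-in hematopoietic replicate 1 or wild type mesenchymal replicate 6, and its lowest value in that leave-one-out series was −0.52. Src and Fyn, kinases of one family, thus had interactions of opposite sign. Dkk2, a secreted modulator of Wnt signals, had a median of 0.45 CPM in mesenchymal libraries of wild type and 2.27 CPM in those of knock-in cultures and of 2.75 and 2.68 CPM in hematopoietic ones, an interaction of 1.99 ± 0.53 (SE, edgeR adjusted p = 0.022). Ptger4, a prostaglandin E2 receptor, had effects of 0.95 and −0.14, while Ptges, the synthase that makes its ligand, had −0.09 and 2.58 in mesenchymal and hematopoietic cells.

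**Figure D3:**
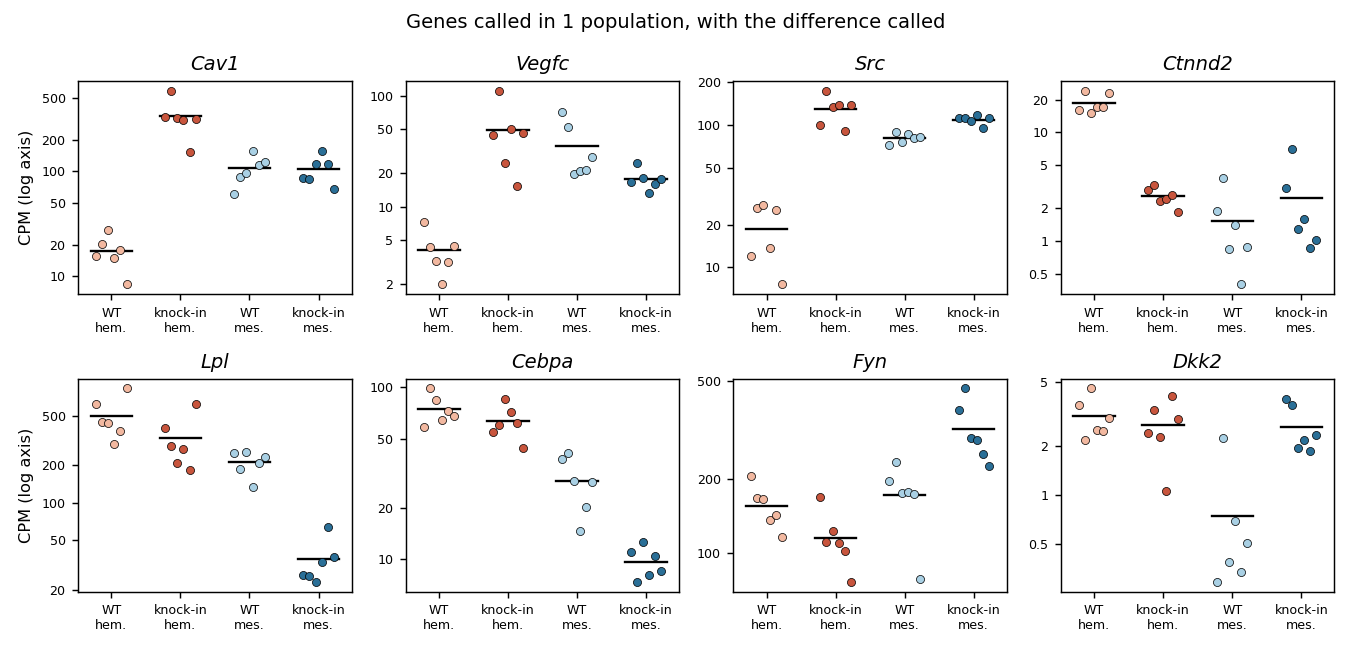
CPM of 8 genes called in a single population (y axes, log scale, 1 panel per gene) in the 4 groups on the x axis (WT wild type, hem. hematopoietic, mes. mesenchymal), with 1 point per library and a line at the mean of 6. Cav1, Vegfc and Src are higher and Ctnnd2 lower in knock-in hematopoietic libraries without overlap, and Lpl and Cebpa are lower in knock-in mesenchymal libraries without overlap.

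A small class of 15 genes changed in both populations in the same direction by different amounts. Igfbp4, which binds insulin-like growth factors, ranged from 351 to 989 CPM in wild type mesenchymal libraries (median 746) and from 109 to 279 CPM in knock-in ones (median 168). In hematopoietic libraries it ranged from 325 to 620 CPM in wild type (median 389) and from 205 to 260 CPM in knock-in (median 236). It fell without overlap in both, by 2.02 and by 0.83 on the log2 scale. The interaction was −1.18 ± 0.32 (SE, edgeR adjusted p = 0.025), and it missed the threshold without wild type mesenchymal replicate 6 (0.0599) or knock-in mesenchymal replicate 6 (0.0509). Hdac9, a histone deacetylase, fell in hematopoietic cells from a median of 402 to 45.1 CPM and in mesenchymal cells from 15.5 to 8.73 CPM, an interaction of 1.96 ± 0.36 (SE, edgeR adjusted p = 0.0014). Its mesenchymal call (adjusted p = 0.042) did not hold in 17 of 36 alternative settings.

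Nuclear genes of oxidative phosphorylation, which encode subunits of the respiratory chain and ATP synthase, gave the highest share of interactions among the 35 functional lists. Of 41 genes tested, 22 had a lower and 1 a higher effect in mesenchymal cells, beside 4.36% and 2.92% of all genes. In hematopoietic cells 21 rose and none fell, beside 8.6% and 7.22% of all genes. In mesenchymal cells 6 fell and 1 rose, beside 3.79% and 2.86%. The 6 became 2 or 3 without any 1 of wild type mesenchymal replicates 1, 2, 3 and 6 or knock-in mesenchymal replicates 1, 2, 3 and 6, 3 by limma-voom and 3 after subtraction of the other population's RNA. The 1 became 0 without wild type mesenchymal replicate 3. The estimate was positive in hematopoietic and negative in mesenchymal cells for 30 of the 41 and the reverse for 1. Over all genes, 20.5% had the first pattern. The median effects were 0.38 and −0.22 and the median interaction −0.62. The mean log2(CPM + 1) over the list ranged from 4.64 to 5.11 in wild type hematopoietic libraries (median 4.88) and from 5.07 to 5.38 in knock-in ones (median 5.27). In mesenchymal libraries it ranged from 4.78 to 5.07 in wild type (median 4.84) and from 4.57 to 4.89 in knock-in (median 4.69). In hematopoietic cells 1 of 6 wild type libraries lay above the lowest knock-in one, and the genotypes were apart within each run. In mesenchymal cells 4 of 6 wild type libraries lay below the highest knock-in one. The genotypes were apart there in run 1 and interleaved in run 2.

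Among its members, Cyc1, which encodes cytochrome c1 of complex III, had effects of 0.92 and 0.10, and Uqcrfs1, the Rieske protein of the same complex, 0.87 and 0.15. The 4 subunits of succinate dehydrogenase, Sdha, Sdhb, Sdhc and Sdhd, had interactions of −0.59, −0.71, −0.62 and −0.65, all called. Sdhd ranged from 36 to 59.2 CPM in wild type hematopoietic libraries (median 43.1) and from 54.9 to 83.9 CPM in knock-in ones (median 64.5), with a small overlap. Its mesenchymal libraries ranged from 29 to 42.1 CPM in wild type (median 34) and from 28.3 to 39.3 CPM in knock-in (median 31.7), a shared range. Cytochrome oxidase subunits Cox5b and Cox8a had the larger part of their difference in mesenchymal cells, with effects there of −0.59 and −0.43 against 0.30 and 0.27. The 1 member with the opposite interaction was the second of 2 gene identifiers that carry the symbol Atp5o and overlap in the genome. Their interactions were −0.89 and 1.04, so reads at that locus may have been divided by the counting.

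Further groups of mitochondrial and housekeeping genes were chosen after these values were seen. Among all 13021 protein-coding genes tested, 632 had a lower and 434 a higher effect in mesenchymal cells, and 1220 rose in hematopoietic cells. Over all 79 tested nuclear subunits of complexes I to V, 30 had a lower and 1 a higher effect in mesenchymal cells, with median effects of 0.28 and −0.23. Of 22 genes of the tricarboxylic acid cycle and pyruvate dehydrogenase, 15 had a lower and none a higher effect in mesenchymal cells, and 17 rose in hematopoietic cells, with median effects of 0.45 and −0.07. Of 20 genes of fatty acid oxidation, 7 had a lower effect in mesenchymal cells. Among 74 mitochondrial ribosomal proteins 2 interactions were called. None was called by edgeR's quasi-likelihood test among 75 cytosolic ribosomal proteins, 38 proteasome subunits or 7 mitochondrially encoded subunits, of which 0, 3 and 0 had an unadjusted p under 0.05, and DESeq2 and limma-voom also called 0. Their median interactions were −0.09, −0.06 and −0.42. The 7 mitochondrially encoded subunits had median effects of −0.21 in hematopoietic and −0.58 in mesenchymal cells, so the lack of a call among them decides nothing. In glycolysis and the hypoxia response, 6 of 38 had a lower effect in mesenchymal cells, including Hk1, Aldoa and Hif1a, and 2 a higher one, Hk2 and Ndrg1, beside 4.36% and 2.92% of all genes. The symbol Aldoa belongs to 2 identifiers among the 38, with wild type hematopoietic medians of 464 and 0.772 CPM. The first, which is expressed in both populations, is meant here.

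The hematopoietic part of the oxidative phosphorylation result was alike in the 2 runs, with medians of 0.40 and 0.37. The mesenchymal part was −0.32 in run 1 and −0.03 in run 2, so the median interaction was −0.72 and −0.43. With 3 libraries per group, 4 interactions of the list were called in run 1 and none in run 2. Over all genes tested, 180 of 15424 were called in run 1 and 138 of 15636 in run 2. Nothing is read from the difference between 4 and none. Gene length moved with the interaction over all genes. The median interaction was −0.14 in the tenth of genes with the shortest genomic span and 0.155 in the tenth with the longest, and Spearman's rho over 9889 genes, which share libraries and are not independent, was 0.246. The list's median span was 7.46 kb, against 26.2 kb for all protein-coding genes tested. After removal of the trend with span, the list's median interaction was −0.53 with 22 lower calls, and after removal of the trend with transcript length it was −0.49 with 19. The tricarboxylic acid cycle genes had a median span of 22 kb, and the cytosolic ribosomal proteins, whose median interaction was −0.09, one of 3.29 kb. The runs differed for these ribosomal genes, with a median interaction of −0.35 in run 1 and 0.19 in run 2. Their median mesenchymal effect in run 1, −0.32, was that of the oxidative phosphorylation genes.

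**Figure D4:**
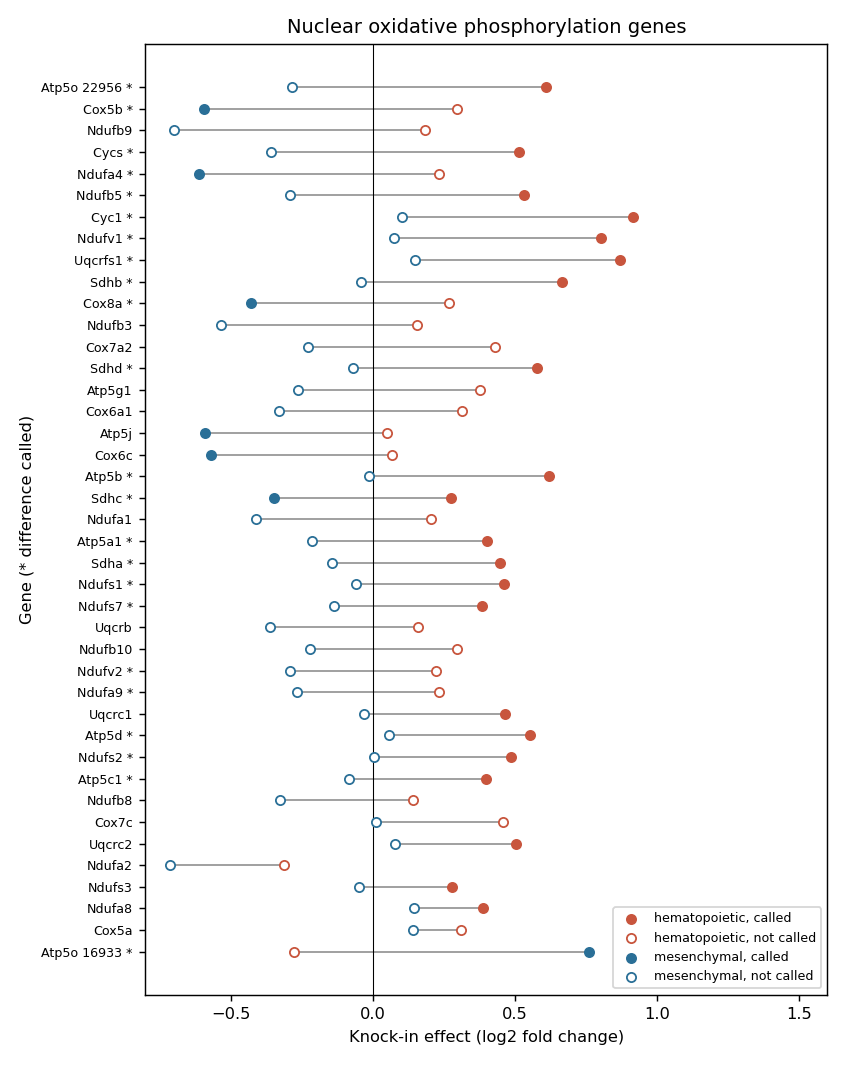
Knock-in effects (x axis, log2 fold change) of 41 nuclear oxidative phosphorylation genes (y axis, ordered by interaction, a star where it was called) in hematopoietic (red) and mesenchymal (blue) cells, filled where the effect was called. The numbers after Atp5o are the ends of its 2 gene identifiers. Red points lie to the right of blue ones for all genes but the lowest, and the medians are 0.38 and −0.22.

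For other lists few or no differences were called. Interferon-stimulated genes had median effects of −0.51 and −0.52, and the interaction was called for 1 of 38. The runs disagreed, with a median interaction of 0.43 in run 1 and −0.47 in run 2 and median mesenchymal effects of −0.16 and −0.82. Osteoblast and mineralisation genes had median effects of −0.45 and −0.63 and 1 call among 23, Ank, the pyrophosphate transporter. The summed level of 8 osteoblast markers had a lower median in knock-in libraries of both populations. In hematopoietic libraries it was 57.5 to 623 CPM in wild type (median 312) and 41.2 to 141 CPM in knock-in (median 82.8), with overlap. In mesenchymal libraries it was 787 to 2670 CPM (median 1650) and 330 to 746 CPM (median 649), without overlap. Of 6 markers tested, 2 counted as expressed in both populations, and the part of carry-over was not tested. EdgeR called no interaction among 26 genes of cholesterol synthesis, 42 of the cell cycle, 40 matrix glycoproteins and proteoglycans, 33 contractile genes or 22 niche factors. Of these, 5, 6, 0, 6 and 2 had an unadjusted p under 0.05. DESeq2 and limma-voom called 2 and 1 contractile genes and none in the other 4 lists. Of the members tested, 24, 41, 5, 9 and 6 counted as expressed in both populations. For the others carry-over can make the 2 effects alike, so the lack of a call there decides nothing. In the cell cycle list 24 of 42 estimates were negative in hematopoietic and positive in mesenchymal cells, against 21.7% of all genes. Its median interaction was 0.198. Tnfsf11, which encodes RANKL, rose by 1.78 and 0.99 in hematopoietic and mesenchymal cells, and Tnfrsf11b, its decoy receptor, fell by 1.62 and 0.89 on the log2 scale. Their interactions were −0.79 ± 0.48 and 0.73 ± 0.38 (SE, edgeR adjusted p = 0.4 and 0.31), with 95% confidence intervals of −1.79 to 0.21 and −0.06 to 1.52, which leave room for a difference in either gene. The mesenchymal calls of Tnfsf11 and Tnfrsf11b (adjusted p = 0.043 and 0.039) were lost in 16 and 15 of 36 alternative settings. Both genes were far lower in hematopoietic than in mesenchymal libraries. Tnfsf11 averaged 0.85 and 3 CPM against 10.0 and 20.1 CPM, and Tnfrsf11b 22.3 and 7.23 CPM against 217 and 117 CPM. With the other population's RNA subtracted, the hematopoietic rise of Tnfsf11 was no longer called (edgeR adjusted p = 0.0828). The hematopoietic effect of Tnfrsf11b was still called, but at −8.32 in place of a fall of 1.62. The subtraction stops counts at 0, which can inflate such a value, so nothing is read from that call. Interactions were not called for Tnf, Csf1 and Runx2 either, at 1.40 ± 1.01, −0.18 ± 0.22 and −0.19 ± 0.23 (SE). Tnf averaged 0.036 and 0.11 CPM in mesenchymal libraries, and Csf1 and Runx2 had hematopoietic levels under 0.25 of the mesenchymal ones.

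**Figure D5:**
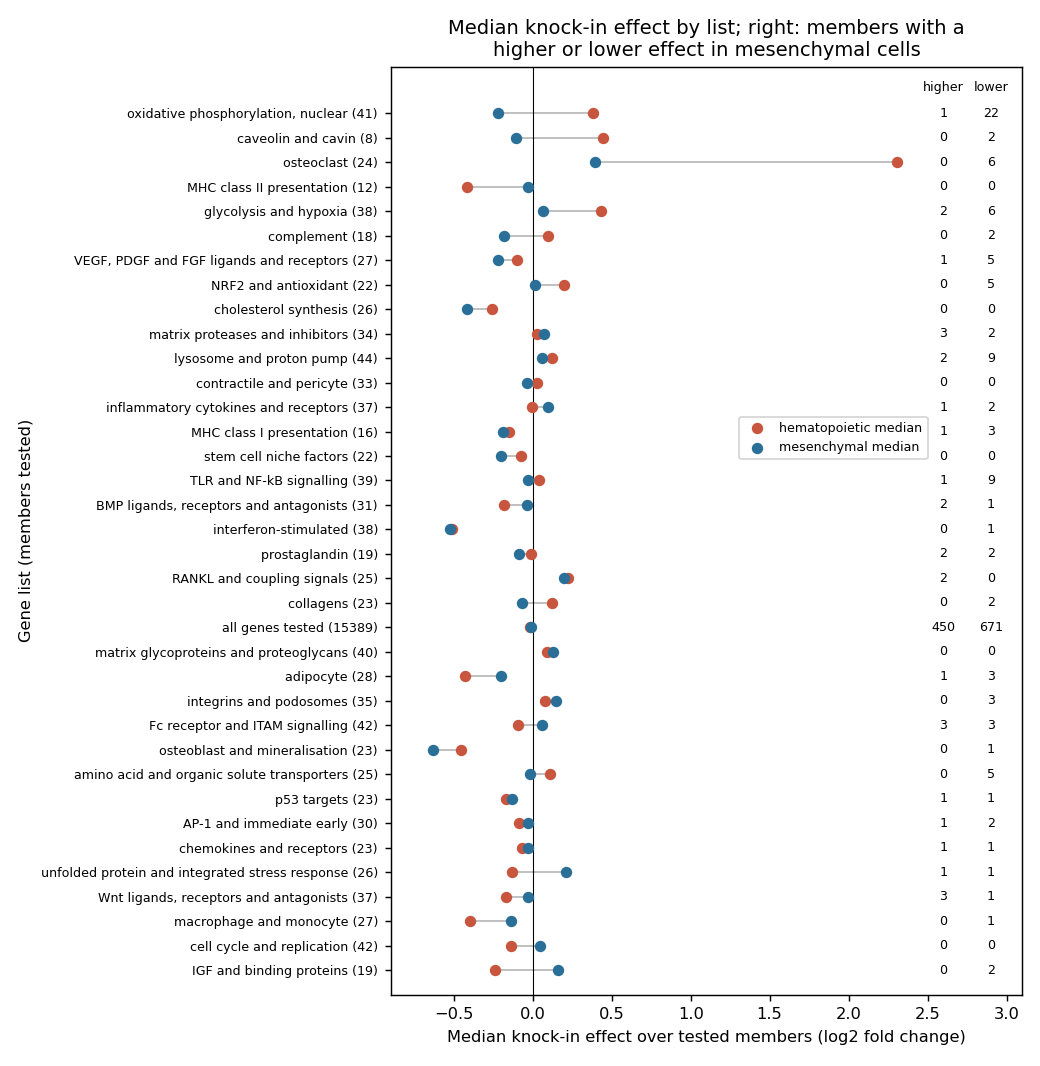
Median knock-in effect over the tested members of each gene list (x axis, log2 fold change) in hematopoietic (red) and mesenchymal (blue) cells, with the lists on the y axis ordered by median interaction and the number tested in parentheses. The columns at the right count members whose effect was called higher or lower in mesenchymal cells, and oxidative phosphorylation has the largest count of lower ones, 22.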

How the data were processed

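Total RNA depleted of ribosomal RNA was made into stranded SMARTer libraries and sequenced as paired ends on a NextSeq, per the labels' protocols. The deposited files hold raw whole-number counts per gene, not normalised. The submitters' processing notes name HTSeq 0.9.1, DESeq2 1.20.0, FastQC 0.11.7 and MultiQC, with the build GRCm38 (mm10). Neither the aligner nor the strand setting of the counting is given in the sources used here, and values of overlapping or antisense genes are uncertain.

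Samples were grouped by title. The first characters of each deposited file's name were read as 1 of 2 runs, each holding 3 libraries per group. No label states the runs. Identifiers in the file names recur in both populations and may mark 1 culture sorted into both, which no label states. The filter was filterByExpr with a minimum count of 10 and a minimum total of 15. Libraries were scaled by TMM and genes tested in 1 fit of 24 libraries with edgeR 4.0.16's robust quasi-likelihood test in R 4.3.3, with group and run as terms and Benjamini-Hochberg adjustment at 0.05. SE and 95% intervals come from the same fit. Of 54232 gene identifiers, 54165 matched the GENCODE M21 annotation, which gave symbols and positions. Replicates differed by more than counting noise, at a chi-square per degree of freedom of 6.73 to 58.8, and none was merged. Depth per library gives a precision limited by counting for genes at a few CPM. Expressed in both populations means a mean of at least 1 CPM in each, a hematopoietic mean over 0.25 of the mesenchymal one and a mesenchymal mean over 0.02 of the hematopoietic one.

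The members, the rule for named genes, the gene lists and the alternatives were chosen with earlier results of these data known, and the mitochondrial lists beyond oxidative phosphorylation and the length corrections after seeing the data of this fit. The rule always named Sh3bp2, Runx2, Ptprc, Ly6a, Csf1, Tnf, Tnfrsf11b and Tnfsf11. It then took, among genes called and expressed in both, the 8 opposite-sign genes of each direction with the smallest p, the 6 largest of each direction called in 1 population, the 4 largest of the same sign, and 2 per list with 3 or more calls. Other genes in the text (Plxna2, Mdh1, Uqcrh, Sdhc, Sdha, Sdhb, Cyc1, Uqcrfs1, Cox5b, Cox8a, Lrp1, Man2a1, Gng2, Wnk1, Nfatc1, Itgb3, Nrp1, Cav2, Agpat4, H2-K1, H2-D1, Slc7a11, Ank, Nrp2, Fgfr2, Atp5o, the antioxidant, NF-kB and proton pump genes and list members given by name alone) were chosen with their values known. For the other population's RNA, the share is the median over markers averaging 10 CPM or more of their level relative to the population they mark.

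In counts simulated for 15191 genes, 67, 67 and 66 genes were given changes of 1.5-fold, 2-fold and 4-fold in knock-in mesenchymal libraries. The interaction test called 29.9%, 65.7% and 87.9% of them, and 4 unchanged genes. Alternatives were DESeq2 1.42.0 (size factors and Wald test), limma 3.58.1 voom with quality weights, no filter, no run term, each run alone, a replicate block, file-name identifiers as a random block, subtraction of the other population's RNA, removal of length trends, and each library left out.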

Additional observations from a re-analysis of the deposited data

Results flagged for a closer look

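The knock-in effect differed between the populations, by the interaction test, in 450 genes with a positive and 671 with a negative value, and 61 genes had effects called in both populations with opposite signs. Among the genes described by library, the interactions of such genes were −1.71 for Bcar3, −1.22 for Zc3h12a, −0.685 for Hk1, −2.53 for Ccl9, −2.95 for Cd200, −1.13 for Cyp4v3, 1.87 for Plxnc1, 1.53 for Retreg1, 0.824 for Ctsb, 0.977 for Rassf5 and 0.753 for Ap2a2 on the log2 scale.

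In 9 of 120 groups of 6 libraries, for 30 genes in 4 groups, 1 library stood far from the rest by Dixon's test, where chance gives about 1 in 20. Knock-in hematopoietic replicate 6 was the highest of its group for Ccl9 (603 CPM, next 209) and for Bmp2 (4.63 CPM, next 1.85). Knock-in hematopoietic replicate 2 was the highest for Vegfc (112.1 CPM, next 50.6). Wild type mesenchymal replicate 6 was the lowest for Bcar3 (173 CPM, next 209). Wild type mesenchymal replicate 2 was the lowest for Bmp2 (1.72 CPM, next 4.35) and the highest for Dkk2 (2.26 CPM, next 0.697), and replicate 1 was the highest for Itga2 (5.53 CPM, next 3.43). Knock-in mesenchymal replicate 2 was the highest for Ctnnd2 (7.03 CPM, next 3.1) and replicate 5 for Lpl (64.5 CPM, next 36.9).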

How the results depend on the processing

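The signs of all 1121 interactions, where a gene could be tested, and the opposite signs of the 61 gene estimates held under every alternative, including each run alone. These genes were selected in the same libraries that every alternative used in whole or in part. Nothing is therefore read from the kept signs. Counts of calls did not hold. DESeq2's Wald test gave 687 positive interactions and 94 opposite-sign genes, and no filter gave 276 and 23, with 652 genes called in mesenchymal cells. Run 1 alone, with 3 libraries a group, gave 56 positive and 124 negative interactions, 834 and 341 genes called in hematopoietic and mesenchymal cells and 9 opposite-sign genes, and run 2 alone gave 23, 115, 637, 55 and 1. Of the 61, 5 were called again in run 1 and 1 in run 2. Subtracting the other population's RNA gave 593 genes called in mesenchymal cells. With each library left out in turn, opposite-sign genes numbered 35 to 61 and genes called in mesenchymal cells 615 to 1097, the fewest without wild type mesenchymal replicate 6.

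Of the 73 named genes with a called interaction, 66 kept it in all settings but the single-run fits and 11 in all settings. Rab11fip4 lost its call in 24 of 36 settings. The subtraction of the other population's RNA, which stops counts at 0, reversed 3 values, to an interaction of −4.19 and a mesenchymal effect of −4.28 for Ptprc and a hematopoietic effect of 10.6 for Il1rn.

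Same-numbered replicates of different groups deviated together (correlation over 0.1) in 24 of 36 pairs, from −0.183 to 0.498 (median 0.168), against 19 of 72 pairs of different numbers (median −0.087). All 6 same-numbered pairs of wild type and knock-in hematopoietic libraries did so, at 0.115 to 0.498, and both replicates 3 had the highest stromal share of their group, 18.2% and 19.8%. Since 12 of the 36 did not, the numbers were not taken as pairs across all 4 groups. With the replicate block 1331 interactions, 2773 hematopoietic effects and 84 opposite-sign genes were called; 1086 of the 1121 interactions and 51 of the 61 opposite-sign genes kept their calls. All 7 pairs of libraries with the same file-name identifier correlated over 0.1, at 0.15 to 0.331. With that identifier as a random block (consensus correlation 0.236) 1557 interactions were called, 1098 of them among the 1121, and 46 of the 61 opposite-sign genes kept their calls. In counts simulated at the depth of these libraries 29.9% of 67 planted 1.5-fold changes were called. Far more genes were called in the data than were changed in the simulation, so the share detected here may differ. Many changes of that size may still be missed.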

Other observations

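Of 27 ligands and receptors of the VEGF, PDGF and FGF families, 5 had a lower and 1 a higher effect in mesenchymal cells, beside 4.36% and 2.92% of all genes. Nrp2, a co-receptor of VEGF-C, had effects of 0.62 in hematopoietic and −0.46 in mesenchymal cells, and Fgfr2, a fibroblast growth factor receptor, −0.18 and −0.83. Of 25 carriers of amino acids and organic solutes, 5 had a lower effect in mesenchymal cells and none a higher one, beside the same shares. Slc1a5, a glutamine carrier, averaged 19.9 and 39.5 CPM in wild type and knock-in hematopoietic cells and 31 and 26.5 CPM in mesenchymal cells. Slc6a12, a betaine carrier not counted as expressed in both populations, lay between 0 and 0.206 CPM in wild type and between 1.33 and 11.9 CPM in knock-in hematopoietic libraries, and between 0 and 1.01 CPM in all mesenchymal ones. Of 42 genes of Fc receptor and ITAM signalling, the receptor pathways in which SH3BP2 works, 3 had a lower and 3 a higher effect in mesenchymal cells. That is 7.14% each, beside 4.36% and 2.92% of all genes. Only 17 of the 42 counted as expressed in both populations, and nothing is read from these counts.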
